A study of Arabidopsis thaliana with 32 samples.

Results

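The transcriptome of leaves labelled atxr5/6 gcn5 was compared with that of wild type to describe what remains abnormal in the combined mutant. The label names genes of an H3 methylation system and of a histone acetyltransferase. The members were the RNA-seq libraries of these genotypes, 4 of the 8 RNA-seq libraries and of the 32 samples of the series, taken from the sample titles. The atxr5/6 gcn5 group held 2 libraries, and so did each of atxr5/6, gcn5 and wild type. All plants were of the Arabidopsis thaliana accession Col-0, grown in long days, and leaves were taken at 3 weeks of age. The labels name the mutated genes but give no allele, and do not say whether the libraries of a genotype came from separate plants or cultures, so the p-values measure the spread between these libraries, which may be technical. Ribosomal RNA was depleted with a plant kit before stranded libraries were made, and reads were counted over genes and over annotated transposable elements (TEs).

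ATXR5 and ATXR6 place a single methyl group on a lysine of histone H3.1, a mark that keeps heterochromatin silent and stops its DNA from being replicated again within a cell cycle. Plants mutant for both genes express normally silent TEs of the pericentromeres and carry extra copies of that DNA, with a DNA damage response. GCN5, listed as HAG1, is the catalytic subunit of the SAGA coactivator and acetylates lysines of histone H3, including the lysine that ATXR5 and ATXR6 methylate. Its loss is known to affect growth, light responses and hormone-regulated genes.

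Depth over genes was 33721255 and 26574807 counts in atxr5/6 gcn5, against 43969417 and 26607806 counts in wild type. Levels are CPM, counts scaled to a common library size by the TMM factors of the gene table, with no correction for gene length. ATXR5 stood at 0.229 and 0.171 CPM in atxr5/6 gcn5, against 3.26 and 3.21 CPM in wild type (log2 fold change -3.99, SE 0.25, edgeR adjusted p 6.66e-05). ATXR6 (0.588 and 0.377 CPM in atxr5/6 gcn5, 0.457 and 0.464 CPM in wild type, edgeR adjusted p 0.874) and HAG1 (6.11 and 4.83 CPM in atxr5/6 gcn5, 5.33 and 4.25 CPM in wild type, edgeR adjusted p 0.437) did not set the genotypes apart. The group names below therefore stand for libraries labelled so. Leaf mesophyll markers were abundant in every library, seed markers summed to at most 0.155 CPM, and 7 of 8 root markers were too low to test. The root marker tested, PYK10, was higher, at 24.4 and 21.7 CPM in atxr5/6 gcn5, against 11.2 and 11.4 CPM in wild type.

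The libraries also differed in the make-up of their counts. Nuclear rDNA features held 19.1% and 14.7% of gene counts in atxr5/6 gcn5, against 0.287% and 0.630% in wild type. The libraries labelled gcn5 held 21.2% and 13.0%, and those labelled atxr5/6 held 0.860% and 2.33%, so this share separates the libraries as the gcn5 label does, and share and label cannot be told apart. The plastid gene ATCG00020 alone held 12% and 16.4% of counts in atxr5/6 gcn5, against 34.1% and 35.2% in wild type. The plastid features ATCG00920, ATCG00950, ATCG01180 and ATCG01210 together held 21.8% and 12.4% in atxr5/6 gcn5, against 0.152% and 0.307% in wild type, and so were high in the same libraries as nuclear rDNA (21.8% and 14.2% in gcn5). With 2 libraries against 2, the exact two-sided permutation test gave p = 0.33 for each of these shares, which is the smallest value it can give.

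Across the nuclear and organelle genomes, 19575 genes passed the low-count filter, and the quasi-likelihood test of edgeR (p-values adjusted by Benjamini-Hochberg) called 3653 of them higher (18.7%) and 3998 lower (20.4%) in atxr5/6 gcn5 at an adjusted p under 0.05. More of the lower genes changed strongly: 1813 of the lower genes (45.3%) and 969 of the higher genes (26.5%) changed by a log2 of more than 1, and the median sizes were 0.92 for lower and 0.63 for higher genes. Without TMM factors, on library totals alone, 1776 genes were higher and 3111 lower, so that higher genes made up 36.3% of calls instead of 47.7%. When the rDNA share of each library was a covariate, edgeR called 0 genes (1976 at an unadjusted p under 0.05), and no gene call below survives that fit.

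The genes with the smallest p included several that serve protein folding and export. BIP2, an Hsp70 chaperone of the endoplasmic reticulum (ER), stood at 122.9 and 122.0 CPM in atxr5/6 gcn5, against 40.7 and 38.2 CPM in wild type (log2 fold change 1.63, SE 0.08, edgeR adjusted p 3.29e-05). PDIL1-2, a protein disulfide isomerase, was counted at 50.4 and 46.0 CPM in atxr5/6 gcn5 and at 12.9 and 12.6 CPM in wild type, a rise of 3.78-fold. UTR3, a nucleotide sugar transporter, stood at 19.9 and 21.7 CPM in atxr5/6 gcn5, against 5.43 and 5.45 CPM in wild type, 3.82-fold. The libraries of each genotype lay close together for these genes and far from the other genotype. This follows from the choice by small p among genes whose libraries do not overlap. Hsp70-2, a heat shock protein of the cytosol, rose 4.52-fold, to 30.2 and 26.9 CPM in atxr5/6 gcn5, against 6.09 and 6.604 CPM in wild type. CHI (AT2G43570), listed as a chitinase, rose 17.9-fold, with 60.5 and 49.9 CPM in atxr5/6 gcn5 and 3.26 and 2.86 CPM in wild type. The other 3 of the 8 higher genes with the smallest p, AT1G11070, AT4G38780 and AT4G22960, carry no name in the gene table and rose 11.7-fold, 9.32-fold and 26.5-fold.

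Among lower genes, UMAMIT17, a member of a family of amino acid transporters, was almost lost, with 0.164 and 0.137 CPM in atxr5/6 gcn5, against 7.93 and 7.57 CPM in wild type (log2 fold change -5.65, SE 0.23, edgeR adjusted p 1.69e-05). PMAT2, a malonyltransferase of phenolic glucosides, stood at 0.523 and 0.617 CPM in atxr5/6 gcn5, against 9.54 and 10.2 CPM in wild type. PGL34, a protein of plastid lipid droplets, fell to 2.29 and 2.33 CPM in atxr5/6 gcn5, against 15.02 and 15.2 CPM in wild type. Each of these was more than 6 times lower, and the libraries of a genotype nearly coincided, which the choice by small p favours. TGG2, a myrosinase that cleaves glucosinolates, was an abundant transcript among them, at 176.7 and 163.2 CPM in atxr5/6 gcn5 and 714.9 and 700.4 CPM in wild type. ZW9, AT2G15960, AT1G78820 and AT3G55240 completed the 8 lower genes with the smallest p, with log2 fold changes of -4.20, -3.05, -3.16 and -3.32.

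**Figure D1:**
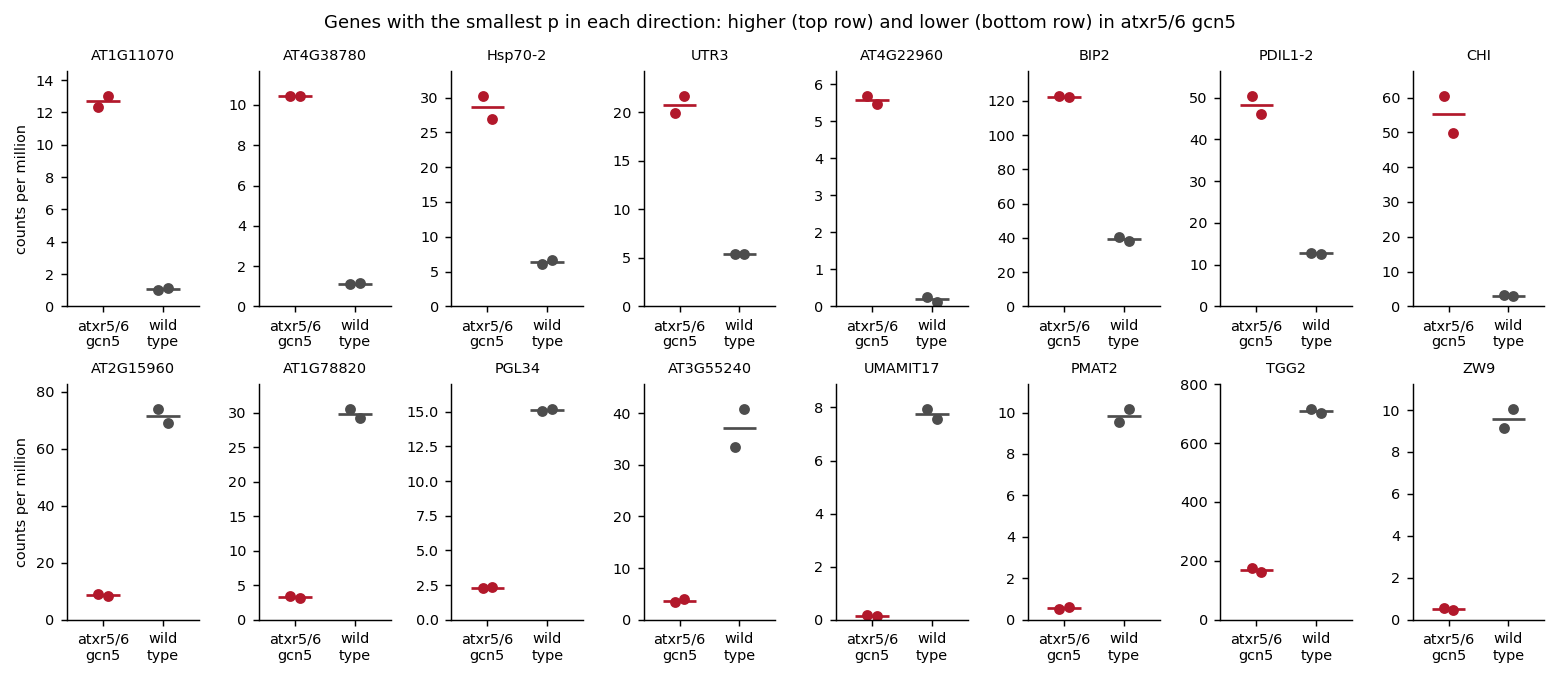
Levels in CPM of the 8 higher (top row) and 8 lower (bottom row) nuclear protein-coding genes with the smallest p, in atxr5/6 gcn5 (left of each panel) and wild type (right). Points are libraries and bars are means of 2, and each axis starts at 0. The genes were chosen among those whose libraries do not overlap between the genotypes. BIP2, for example, shows 122.9 and 122.0 CPM in atxr5/6 gcn5 and 40.7 and 38.2 CPM in wild type.

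Since BIP2, PDIL1-2 and UTR3 were among the 8 higher genes with the smallest p, a list of 24 genes of ER protein folding was written after their values were seen, and it is described without a test. Of its members 18 were higher and 1 was lower, and the median log2 fold change was 1.42. The 18 include the 3 genes that prompted the list, so this count is not set against the share over all genes. All 12 chaperones and cochaperones on it were called higher in atxr5/6 gcn5. SHD, the Hsp90 of the ER, was the most abundant, with 437.1 and 412.7 CPM in atxr5/6 gcn5, against 161.9 and 135.2 CPM in wild type. CNX1, a calnexin that holds glycoproteins during folding, stood at 115.6 and 105.3 CPM in atxr5/6 gcn5 and at 33.4 and 36.7 CPM in wild type. BIP3, which is induced by ER stress, was at 3.79 and 2.09 CPM in atxr5/6 gcn5, against 0.109 and 0.155 CPM in wild type. NAC103, a transcription factor of the unfolded protein response, rose 12.9-fold, with 4.32 and 5.14 CPM in atxr5/6 gcn5, against 0.348 and 0.386 CPM in wild type. The main regulators BZIP60 (34.0 and 20.3 CPM in atxr5/6 gcn5, 24.5 and 41.4 CPM in wild type) and BZIP28 were not called. DER2.1, a derlin of ER-associated degradation, fell to 14.2 and 11.9 CPM in atxr5/6 gcn5, against 20.9 and 23.3 CPM in wild type. The median log2 fold change of this list against wild type was 0.24 in atxr5/6 and 1.16 in gcn5, where 6 and 18 members were higher (5.48% of all genes were higher in atxr5/6 and 18.1% in gcn5). These comparisons share the wild-type libraries, and the 3 genes that prompted the list were called higher in both. The shares beside these counts are therefore no test of the list.

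Genes of the DNA damage response were higher. Of 30 listed, 29 were tested and 1, SMR5, was listed at 0 in every library. In atxr5/6 gcn5, 23 of the 29 were higher (79.3%, against 18.7% of all genes) and 0 were lower, and their median log2 fold change was 1.08 beside 0.00 for all genes. By role these were 14 of 17 repair genes, 7 of 8 checkpoint genes tested and 2 of 4 genes of nucleotide supply. PARP2, a poly(ADP-ribose) polymerase activated by broken DNA, had the smallest p, with 15.1 and 15.1 CPM in atxr5/6 gcn5, against 1.94 and 2.201 CPM in wild type (log2 fold change 2.88, SE 0.18, edgeR adjusted p 6.32e-05). Its level was 64.2 and 60.4 CPM in atxr5/6 but 3.94 and 2.56 CPM for gcn5, so that atxr5/6 gcn5 lay between atxr5/6 and gcn5. SMR7, an inhibitor of cyclin-dependent kinases, stood at 2.98 and 2.74 CPM in atxr5/6 gcn5 and 12.1 and 13.4 CPM in atxr5/6, against 0.284 and 0.452 CPM for gcn5 and 0.152 and 0.348 CPM in wild type. XRI1, named for its induction by X-rays, was at 16.0 and 19.7 CPM in atxr5/6 gcn5, against 4.59 and 5.14 CPM in wild type, and TK1A, a thymidine kinase, at 16.7 and 18.6 CPM against 6.54 and 5.37 CPM in wild type.

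The order of the genotypes differed between members of this list. Tested against atxr5/6, 13 members were lower in atxr5/6 gcn5 (18.3% of all genes tested were lower in that comparison) and 8 were higher (18.4% of all genes). The 13 included PARP2, SMR7, XRI1, TK1A, BRCA1 and TSO2, a subunit of ribonucleotide reductase. TSO2 stood at 44.6 and 60.5 CPM in atxr5/6 gcn5, against 18.1 and 14.3 CPM in wild type, with a mean of 158.1 CPM in atxr5/6. The 8 that were higher than in atxr5/6 were RAD54, RAD5A, KU70, LIG4, RAD50, NBS1, ATM and SOG1, the transcription factor that directs the plant response. SOG1 was at 10.4 and 10.7 CPM in atxr5/6 gcn5, against 7.41 and 8.03 CPM in wild type, with a mean of 4.72 CPM in atxr5/6 and 9.96 CPM in gcn5. ATM, a kinase that senses breaks, stood at 33.8 and 32.3 CPM in atxr5/6 gcn5 and at 21.4 and 22.9 CPM in wild type. In atxr5/6 against wild type, 16 members were higher and 1 lower (5.48% and 7.69% of all genes), with a median log2 fold change of 0.89. In gcn5 against wild type, 19 were higher and 0 lower (18.1% and 19.4% of all genes), with a median of 0.58. Tested against gcn5, 5 members were higher in atxr5/6 gcn5 (PARP2, SMR7, XRI1, TK1A and RPA1E), and only 16 of all genes were higher (0.0817%) and 2 lower (0.0102%) in that comparison. RPA1E, a subunit that coats single-stranded DNA, stood at 2.58 and 2.47 CPM in atxr5/6 gcn5, against 0.630 and 0.579 CPM in wild type.

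Replication and mitosis genes were called higher or not at all. Of 18 replication genes 5 were higher (27.8%, against 18.7% of all genes) and 0 lower, and TSK, which binds newly made H3.1, rose 2.07-fold, to 3.53 and 3.56 CPM in atxr5/6 gcn5, against 1.87 and 1.51 CPM in wild type. CDT1A, a licensing factor, rose 1.91-fold, and none of the histone H3.1 genes HTR1, HTR2, HTR3, HTR9 and HTR13, near-identical copies that can share reads, was called. Of 15 mitosis genes 5 were higher (33.3%) and 0 lower, among them HINKEL, a kinesin of the division plane, at 13.3 and 14.5 CPM in atxr5/6 gcn5, against 8.46 and 6.14 CPM in wild type. These counts moved with single libraries. Without wild-type replicate 1, 13 replication genes were higher, and without atxr5/6 gcn5 replicate 2 or wild-type replicate 2 there were 3 replication and 2 mitosis genes.

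Salicylic acid is the hormone that directs defence against pathogens feeding on living cells, and its genes were higher in atxr5/6 gcn5. Of 28 members tested (WRKY62 was too low) 21 were higher (75%, against 18.7% of all genes) and 0 lower, and the median log2 fold change was 1.41. Of the 7 synthesis genes 6 were called higher. ICS1, the isochorismate synthase that makes the precursor of salicylic acid, stood at 45.8 and 29.6 CPM in atxr5/6 gcn5, against 6.93 and 7.26 CPM in wild type (log2 fold change 2.41, edgeR adjusted p 0.000169). ALD1, an aminotransferase for the systemic signal pipecolic acid, was at 3.37 and 4.52 CPM in atxr5/6 gcn5 and at 0.217 and 0.309 CPM in wild type. Among signalling genes 7 of 11 were higher, and WRKY70, a transcription factor, stood at 72.7 and 57.9 CPM in atxr5/6 gcn5, against 28.3 and 19.1 CPM in wild type. The receptor NPR1 was not called, with 33.1 and 26.9 CPM in atxr5/6 gcn5 and 26.8 and 34.5 CPM in wild type.

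The response genes held the highest folds, with 8 of 10 higher. PR2, a glucanase, was at 294.8 and 194.2 CPM in atxr5/6 gcn5, against 15.6 and 13.4 CPM in wild type (log2 fold change 4.07, SE 0.24, edgeR adjusted p 5.48e-05). PR1, the classical marker of this response, stood at 81.6 and 52.1 CPM in atxr5/6 gcn5 and at 3.54 and 4.75 CPM in wild type, and AED1, a secreted protease, at 148.9 and 135.4 CPM against 19.6 and 27.4 CPM in wild type. In 24 of the 28 members atxr5/6 gcn5 replicate 1 was above replicate 2. Without that library 16 members were higher and 1 lower. Against atxr5/6, 26 of the 28 were higher in atxr5/6 gcn5 (18.4% of all genes were higher in that comparison). In the comparisons of atxr5/6 and of gcn5 with wild type, 19 were higher in gcn5 (18.1% of all genes higher, 19.4% lower) and 1 was higher and 10 lower in atxr5/6 (5.48% of all genes higher, 7.69% lower).

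Jasmonate genes, which respond to wounding and to feeding insects, went mostly the other way. Of 26 tested (MYC2 was listed at 0) 18 were lower (69.2%, against 20.4% of all genes) and 3 higher, and the median log2 fold change was -1.35. Synthesis genes were lower in 6 of 9, including LOX3, a lipoxygenase, at 5.66 and 5.21 CPM in atxr5/6 gcn5, against 26.4 and 149.5 CPM in wild type. The JAZ repressors were lower in 8 of 10 signalling members tested, among them JAZ7 at 0.490 and 0.240 CPM in atxr5/6 gcn5, against 2.52 and 4.87 CPM in wild type. The wild-type libraries differed widely here: replicate 2 exceeded replicate 1 in 21 of the 26 members, by a median log2 of 0.95. Without wild-type replicate 2, 14 members were lower, and without atxr5/6 gcn5 replicate 2, 9 were. The wild-type libraries lay closer for ST2A, a sulfotransferase of hydroxyjasmonate, at 1.37 and 0.788 CPM in atxr5/6 gcn5, against 11.3 and 9.46 CPM in wild type (log2 fold change -3.26, SE 0.23, edgeR adjusted p 9.38e-05). The 3 higher genes were the defensin PDF1.2A, the storage protein VSP1 and TAT3, a tyrosine aminotransferase with 51.0 and 52.1 CPM in atxr5/6 gcn5 and 12.5 and 17.5 CPM in wild type.

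Nuclear genes of photosynthesis were lower throughout. Of 28 tested (LHCB1.5 was listed at 0) 28 were lower, against 20.4% of all genes, with log2 fold changes from -2.21 to -0.44 and a median of -0.78. All 16 genes of the light-harvesting complexes tested and all 12 of the photosystems and the Calvin cycle were called. RBCS2B, a small subunit of Rubisco, fell most, to 200.5 and 188.3 CPM in atxr5/6 gcn5, against 982.6 and 819.0 CPM in wild type (log2 fold change -2.21, SE 0.14, edgeR adjusted p 6.34e-05). Its relative RBCS1A stood at 2388 and 3031 CPM in atxr5/6 gcn5, against 4049 and 3698 CPM in wild type. These near-identical copies can share reads. LHCB4.2, an antenna protein of photosystem II, was at 616.6 and 670.9 CPM in atxr5/6 gcn5 and at 1411 and 1393 CPM in wild type. All 28 were lower than in atxr5/6 too (18.3% of all genes were lower in that comparison). The list's median against wild type was 0.01 in atxr5/6, with 3 members higher and 0 lower (5.48% and 7.69% of all genes). In gcn5 the list's median was -0.68, with 26 lower (19.4% of all genes). With library totals alone 20 members were lower.

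Markers of leaf cell types moved beside these lists, and are read against 20.4% lower and 18.7% higher over all genes. All 4 mesophyll markers were lower (1 with library totals alone), but these are photosynthesis genes, and their summed level was 11110 and 12680 CPM in atxr5/6 gcn5, against 18880 and 19120 CPM in wild type. Of 10 vascular markers 8 were lower and 0 higher, with sums of 138.2 and 152.3 CPM in atxr5/6 gcn5, against 304.5 and 289.2 CPM in wild type. SUC2, the sucrose carrier of companion cells, stood at 32.9 and 34.5 CPM in atxr5/6 gcn5, against 107.8 and 106.4 CPM in wild type. Guard cell lineage markers were mixed, with 2 higher and 4 lower of 9, the 4 trichome markers held 1 lower, and 0 of 7 flower and 3 meristem markers tested were called. In whole leaves fewer cells of a type and less RNA per cell cannot be told apart, and the part of cell make-up in the lists was not tested.

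Most Aux/IAA and GH3 genes and most aquaporin genes tested were lower, while 20.4% of all genes were lower and 18.7% higher. Of 16 Aux/IAA and GH3 genes tested, early targets of auxin, 13 were lower and 0 higher, and of 11 expansins, which loosen cell walls, 3 were lower and 1 higher. IAA29 had the smallest p, with 2.35 and 1.34 CPM in atxr5/6 gcn5, against 22.5 and 21.1 CPM in wild type, and IAA7 stood at 27.2 and 31.6 CPM in atxr5/6 gcn5, against 86.8 and 78.3 CPM in wild type. Among genes matched by family name, 19 of 53 SAUR genes were lower and 4 higher, and SAUR22, a promoter of cell expansion, fell 5.23-fold. Aquaporins, the water channels, were lower in 13 of 18 and higher in 0, with PIP1A at 60.02 and 65.2 CPM in atxr5/6 gcn5, against 149.7 and 141.2 CPM in wild type. Of 23 xyloglucan endotransglucosylases, which remodel the cell wall, 9 were lower and 3 higher. XTH17 had 0 counts in both atxr5/6 gcn5 libraries and 169 and 116 counts in wild type, at least 40.6-fold lower against a floor of 3 counts per library. CLV1, a receptor kinase that limits stem cell number, stood at 18.4 and 17.7 CPM in atxr5/6 gcn5, against 54.7 and 61.4 CPM in wild type.

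Nucleolar and cytosolic ribosome genes were called higher more often than lower, while 18.7% of all genes were higher and 20.4% lower. All 5 nucleolar genes tested were higher, with NUC1, the main nucleolin, at 94.3 and 90.8 CPM in atxr5/6 gcn5, against 54.5 and 52.8 CPM in wild type (log2 fold change 0.79, SE 0.08, edgeR adjusted p 0.000522). Of 42 cytosolic ribosomal proteins 27 were higher and 4 lower (median log2 fold change 0.47), though only 8 were higher and 0 lower with library totals alone. Ribosomal proteins of plastids or mitochondria went the other way, with 0 higher and 4 lower of 14, and 0 called with library totals alone. Small nucleolar RNAs, which guide the modification of rRNA, were higher in 32 of 98 and lower in 1, with a median of 0.72. The rDNA share was higher in the same libraries, as given above, and its part in these lists was not tested. Heat shock proteins by name were higher in 19 of 30 and lower in 3. In the heat response list 4 of 7 tested were higher and 2 lower, and HSP18.2, a small chaperone among the lower ones, stood at 0.0327 and 0.0685 CPM in atxr5/6 gcn5, against 1.09 and 0.850 CPM in wild type.

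**Figure D2:**
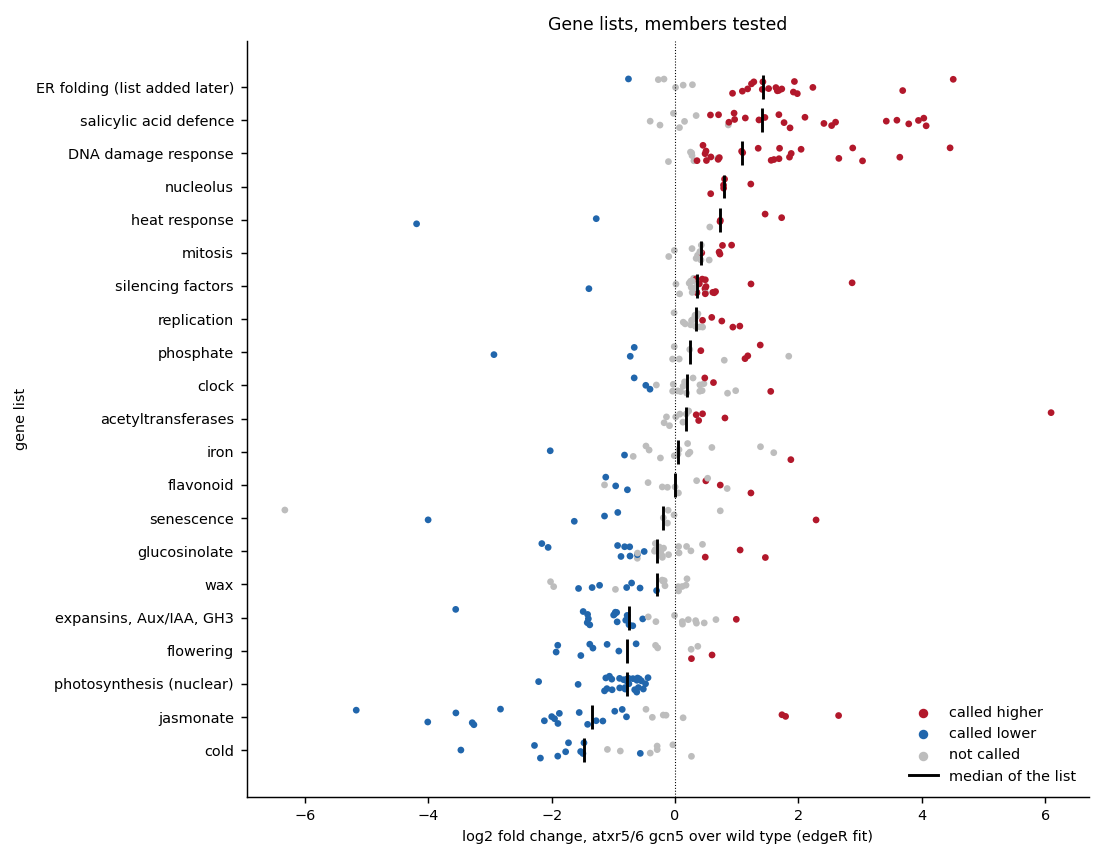
Log2 fold change, atxr5/6 gcn5 over wild type, of each tested member of the 20 gene lists and of the ER folding list added later, ordered by list median (black bar). Colours mark members called higher, called lower or not called by edgeR. Apart from the list added later, the salicylic acid and DNA damage lists lie highest with medians of 1.41 and 1.08, and jasmonate and cold lists lowest with -1.35 and -1.48.

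The fold change furthest from 0 among higher listed genes belonged to a chromatin gene. HAC2, a histone acetyltransferase of the CBP family, stood at 8.24 and 7.26 CPM in atxr5/6 gcn5 and 0.907 and 0.850 CPM in atxr5/6, against 4.22 and 3.35 CPM for gcn5 and 0.174 and 0 CPM in wild type, where it held 8 and 0 counts. Its fitted log2 fold change was 6.09 (SE 0.43, edgeR adjusted p 9.52e-05). Of the other 12 acetyltransferase genes tested 4 were higher, by at most 1.75-fold (HAG2), and 0 lower, so that 5 of all 13 were higher (38.5%, against 18.7% of all genes). With library totals alone or without wild-type replicate 1, 2 of the 13 were higher. Of 26 silencing genes 14 were higher (53.8%, against 18.7% of all genes) and 1, AGO3, lower (3.85%, against 20.4%), with a median of 0.35. AGO9, an Argonaute known from the germline, rose 7.31-fold, to 1.93 and 1.99 CPM in atxr5/6 gcn5, against 0.261 and 0.270 CPM in wild type, and NRPE1, the largest subunit of RNA polymerase V, rose 2.35-fold. The count of 14 fell to 4 with library totals alone, to 8 with DESeq2, to 5 with the genotypes compared alone and to 9 without atxr5/6 gcn5 replicate 1, atxr5/6 gcn5 replicate 2 or wild-type replicate 2.

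The remaining lists are read against 20.4% lower and 18.7% higher over all genes. Of 17 cold genes 10 were lower (58.8%) and 0 higher, including the dehydrins COR47 (66.4 and 38.1 CPM in atxr5/6 gcn5, 116.4 and 230.1 CPM in wild type) and ERD10, but wild-type replicate 2 exceeded replicate 1 in 14 of the 17. COR413IM1, a plastid membrane protein, was at 21.6 and 19.1 CPM in atxr5/6 gcn5, against 50.2 and 67.8 CPM in wild type. Of 14 flowering genes tested 8 were lower (57.1%) and 2 higher (14.3%). MAF5, a MADS-box repressor, stood at 2.16 and 1.27 CPM in atxr5/6 gcn5, against 6.59 and 6.26 CPM in wild type, while SOC1, a promoter of flowering, was at 36.3 and 36.4 CPM in atxr5/6 gcn5, against 57.4 and 55.2 CPM in wild type. Of 21 clock genes 3 were higher and 3 lower (14.3% each, near the share over all genes; 4 and 1 with library totals alone, and 0 lower without atxr5/6 gcn5 replicate 1), and the core genes CCA1, LHY and TOC1 were not called.

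Of 28 glucosinolate genes tested 9 were lower (32.1%, against 20.4% of all genes) and 3 higher (10.7%, against 18.7%). The regulator MYB29 stood at 2.22 and 3.597 CPM in atxr5/6 gcn5 and 33.1 and 32.0 CPM in atxr5/6, against 3.29 and 2.67 CPM for gcn5 and 12.9 and 13.1 CPM in wild type. Against wild type 16 members were higher in atxr5/6 (5.48% of all genes were) and 15 lower in gcn5 (19.4% of all genes), and 19 were lower in atxr5/6 gcn5 than in atxr5/6 (18.3% of all genes). Of 19 wax genes 7 were lower (4 without wild-type replicate 1), led by KCS1, a fatty acid elongase, at 29.7 and 24.3 CPM in atxr5/6 gcn5, against 75.4 and 84.4 CPM in wild type. Flavonoid genes (3 higher and 3 lower of 15), iron genes (1 and 2 of 16, but 4 and 1 with library totals alone) and phosphate genes (4 and 3 of 13) were called in both directions, in few members each. Within them PHO1, which exports phosphate to the xylem, fell to 2.19 and 1.78 CPM in atxr5/6 gcn5, against 15.5 and 15.02 CPM in wild type, and NAS1, a nicotianamine synthase, to 1.93 and 2.26 CPM, against 6.41 and 10.9 CPM in wild type. Of 11 senescence genes 4 were lower (1 without atxr5/6 gcn5 replicate 2 or wild-type replicate 2) and 1 higher. SEN1, a gene of dark-induced senescence, stood at 7.98 and 3.77 CPM in atxr5/6 gcn5, against 101.1 and 87.7 CPM in wild type (log2 fold change -4.00, edgeR adjusted p 0.000186), while SAG13, another senescence gene, was higher, at 11.9 and 6.54 CPM in atxr5/6 gcn5, against 1.11 and 2.94 CPM in wild type. Among other families matched by name, against 20.4% lower and 18.7% higher over all genes, MYB transcription factors were lower in 23 and higher in 5 of 65, ERF and AP2 factors lower in 10 and higher in 2 of 22, and cytochromes P450 lower in 41 and higher in 18 of 127. WRKY factors, with 8 higher and 10 lower of 52, lay near those shares, and of 120 receptor-like kinases 24 were higher and 32 lower.

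**Figure D3:**
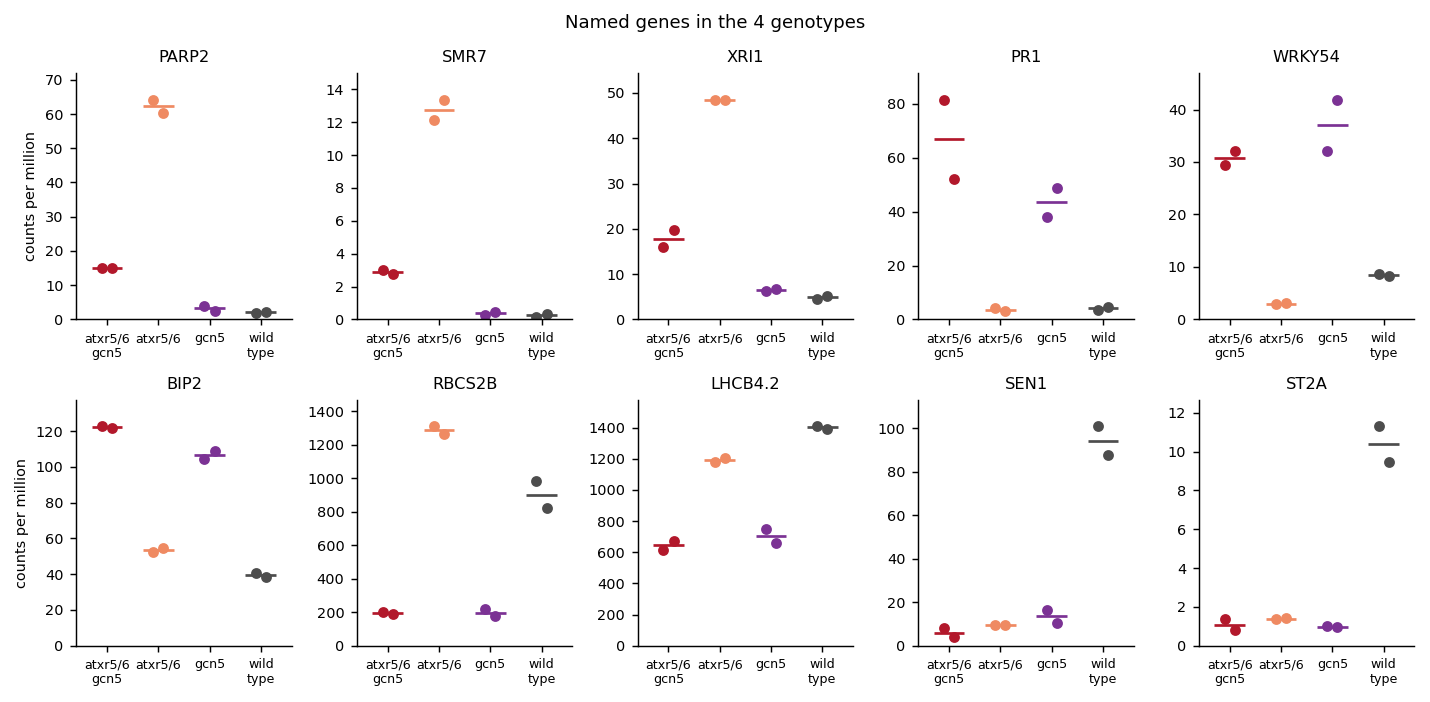
Levels in CPM of named genes in atxr5/6 gcn5, atxr5/6, gcn5 and wild type, from left to right, with points for libraries, bars for means of 2 and axes from 0. PARP2, SMR7 and XRI1 are highest in atxr5/6, while PR1, WRKY54 and BIP2 are high and RBCS2B and LHCB4.2 low in both genotypes with the gcn5 label.

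TEs were tested with the effective library sizes of the gene table. Of 1540 TEs that passed the filter 456 were higher (29.6%) and 142 lower (9.22%) in atxr5/6 gcn5 by edgeR, and of the higher ones 404 changed by a log2 of more than 1 and 309 by more than 3. With the rDNA share as covariate 25 were higher and 0 lower. The filter used all 8 libraries, so a TE silent in wild type was tested only if it was counted in a mutant genotype. That choice raises the share called higher among the TEs tested, here and below. With only the compared genotypes fitted, 266 of 1156 TEs were higher and 112 lower. TE counts were 0.310% and 0.344% of gene counts in atxr5/6 gcn5, against 0.280% and 0.285% in wild type. Those gene counts include the organelle and rDNA features, whose shares differ between the genotypes. Without these features TE counts were 0.928% and 0.84% in atxr5/6 gcn5, against 0.641% and 0.692% in wild type (0.931% and 1.01% in gcn5). The TEs are given by identifier, which the files do not pair with family names, and reads of near-identical copies may be shared between them.

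The TEs with the smallest p were silent or nearly so in wild type. AT4TE19655 stood at 17.95 and 15.3 CPM in atxr5/6 gcn5 and 15.3 and 14.02 CPM in atxr5/6, against 0.325 and 0.640 CPM for gcn5 and 0.0870 and 0.116 CPM in wild type (log2 fold change 7.36, SE 0.30, edgeR adjusted p 2.31e-08). The other 5 lie on chromosome 5 and were far below atxr5/6. AT5TE42135 was at 4.87 and 4.45 CPM in atxr5/6 gcn5, at 18.9 and 18.5 CPM in atxr5/6 but 0.0406 and 0.113 CPM for gcn5, and wild type held 2 and 1 counts, a ratio of 112 (95% exact counting interval 37.9 to 546). AT5TE42190 and AT5TE41070, with 1 count in each wild-type library, had ratios of 126 (34.5 to 1050) and 158 (43.3 to 1310), and AT5TE42440, with 2 and 1 counts, of 89.4 (30.2 to 437). These intervals cover counting error only. Of the 456 higher TEs 132 had no count in wild type and another 132 had 1 to 3.

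The TEs called higher were concentrated in the middle of the identifier order, which runs along each chromosome. At relative places from 0.25 to 0.75, 301 of 581 TEs tested were higher (51.8%), against 92 of 465 (19.8%) before and 63 of 494 (12.8%) after that stretch. Most TEs fell below the filter. Set against all TEs listed, the counts called higher were 301 of 15594 in that stretch, 92 of 7795 before it and 63 of 7800 after it. That contrast is smaller than among the TEs tested, where the filter raises the shares as given above. Whether it raises them equally in each stretch was not tested. Chromosome 3 had the highest share, with 157 of 362 (43.4%), while the other chromosomes lay between 22.8% and 28.2%. In the central stretch of chromosome 3, 120 of 150 (80.0%) were higher.

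Some of the TEs called higher in atxr5/6 gcn5 were also high in gcn5. The identifier order was divided into bins of 2500 identifier numbers, and in 2 of the 61 bins with at least 10 TEs tested more than 50% were higher in gcn5, a choice made after the values were seen. These runs are AT2TE00010 to AT2TE02465, at the start of chromosome 2, and AT3TE57645 to AT3TE59620, within the central stretch of chromosome 3, and the rDNA features of the gene table carry identifiers of the same chromosomes. In the run on chromosome 3, 57 of 59 TEs tested were higher in atxr5/6 gcn5, and in the run on chromosome 2, 14 of 20 (29.6% of all TEs tested were). The summed level of both runs was 319 and 249 CPM in atxr5/6 gcn5, 47.7 and 73.3 CPM in atxr5/6, 661 and 788 CPM for gcn5, and 15.9 and 24.1 CPM in wild type. That gcn5 is high here follows from the choice of the runs. The choice also favours TEs that are low in the wild-type libraries, which the comparison of atxr5/6 gcn5 shares. Within gcn5 the level in the runs did not follow the rDNA share, with 21.2% and 661 CPM in replicate 1 and 13.0% and 788 CPM in replicate 2. In each other genotype the library with the larger rDNA share had the higher level. These were 19.1% with 319 CPM and 14.7% with 249 CPM in atxr5/6 gcn5. The values were 0.860% with 47.7 CPM and 2.33% with 73.3 CPM in atxr5/6, and 0.287% with 15.9 CPM and 0.630% with 24.1 CPM in wild type. The order of 2 libraries within a genotype cannot show a link, and the part of rDNA reads in these calls was not tested. Outside the runs 385 of 1461 TEs were higher (26.4%), including 244 of 522 (46.7%) in the central stretches and 63 of 91 (69.2%) in that of chromosome 3.

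**Figure D4:**
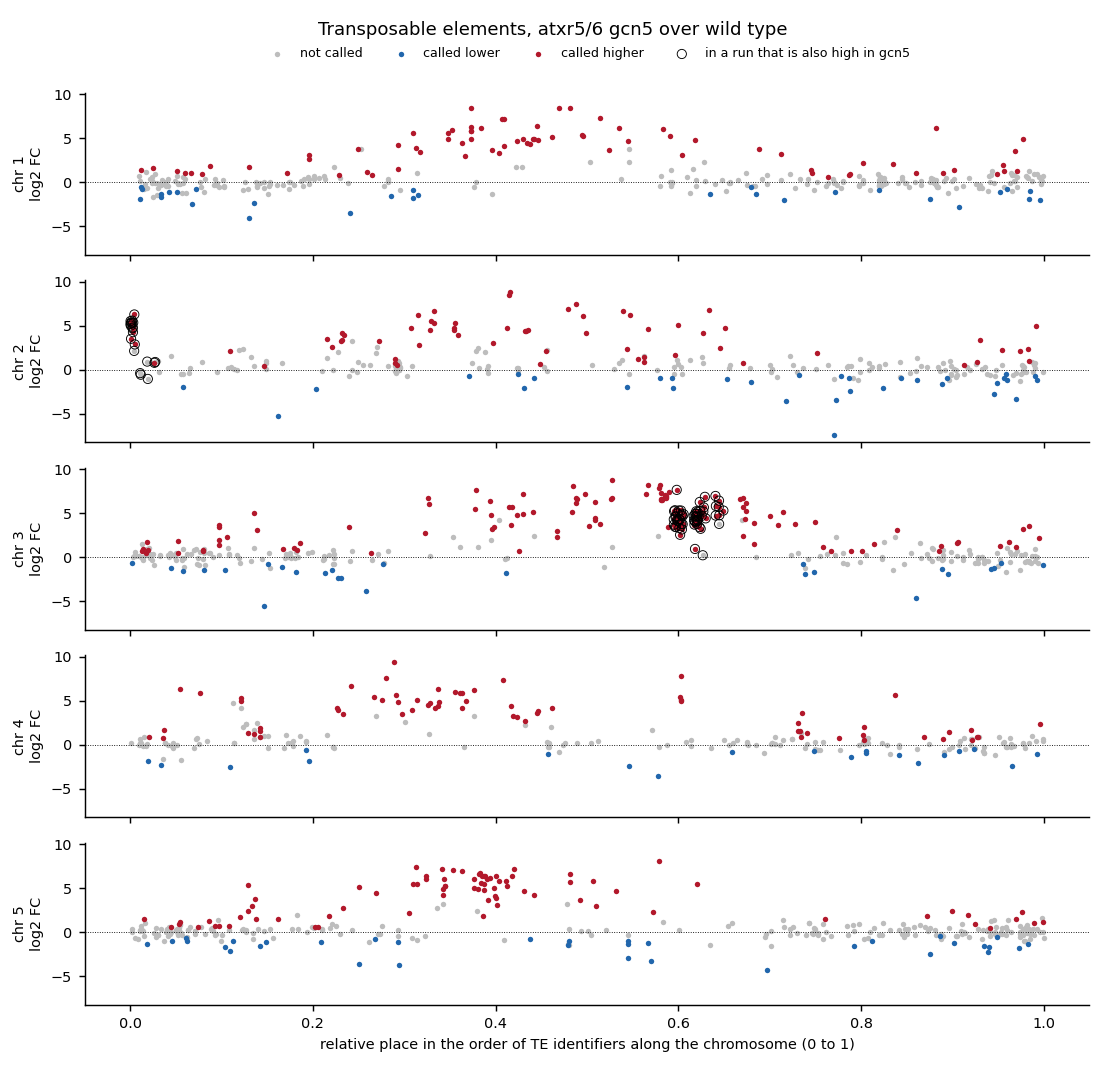
Log2 fold change of each tested TE, atxr5/6 gcn5 over wild type, by its relative place in the order of TE identifiers on chromosomes 1 to 5. Called TEs are coloured and TEs of the runs that are also high in gcn5 are circled. Most of the high points lie in the centre of each chromosome, and the circled TEs form tight groups at the start of chromosome 2 and in the centre of chromosome 3.

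**Figure D5:**
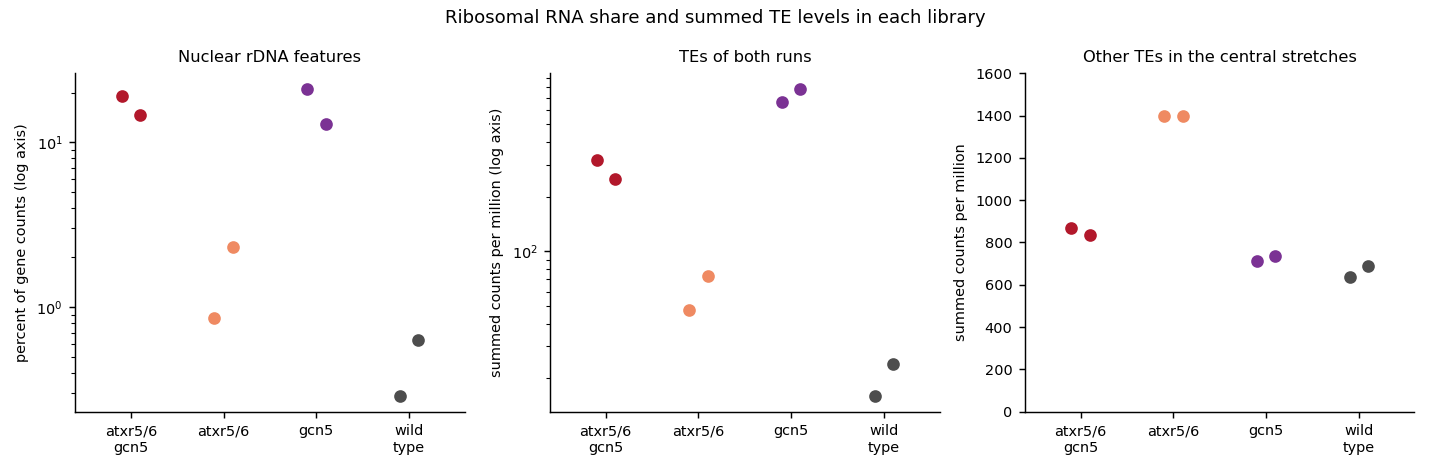
Share of nuclear rDNA features in gene counts (left, log axis), summed level of the TEs of both runs (middle, log axis) and summed level of the other TEs of the central stretches (right, from 0), for the 2 libraries of atxr5/6 gcn5, atxr5/6, gcn5 and wild type. The rDNA share is high in both genotypes with the gcn5 label, the runs, chosen for being high in gcn5, stand at 319 and 249 CPM in atxr5/6 gcn5, and the right panel is highest in atxr5/6.

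Over the whole central stretches, TEs summed to 1171 and 1065 CPM in atxr5/6 gcn5, to 1588 and 1604 CPM in atxr5/6, to 1088 and 1170 CPM for gcn5, and to 699 and 769 CPM in wild type. The levels of atxr5/6 gcn5 and gcn5 overlapped. Without the runs, whose choice lowers the level left in gcn5, the central TEs summed to 870 and 836 CPM in atxr5/6 gcn5, to 1400 and 1400 CPM in atxr5/6, to 714 and 735 CPM for gcn5, and to 638 and 690 CPM in wild type. Of these 522 TEs 244 were higher than wild type in atxr5/6 gcn5, 273 in atxr5/6 and 51 in gcn5. Over all TEs, 26.6% were higher and 4.29% lower in atxr5/6, and 14.2% were higher and 5.52% lower in gcn5. Tested directly against atxr5/6, 26.4% of TEs were lower and 13.2% higher in atxr5/6 gcn5. Against gcn5, 11.2% of TEs were higher and 1.43% lower in atxr5/6 gcn5.

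The 142 lower TEs all held more than 3 counts in wild type (median log2 fold change -1.28). Of them 81 were also lower than in atxr5/6 and 5 lower than in gcn5, against 26.4% and 1.43% of all TEs tested. These comparisons share the atxr5/6 gcn5 libraries, so the choice of TEs that are low there raises both counts. AT5TE49725 had the smallest p, at 1.24 and 0.582 CPM in atxr5/6 gcn5 and 3.04 and 2.78 CPM in atxr5/6, against 1.258 and 0.866 CPM for gcn5 and 9.04 and 8.57 CPM in wild type (log2 fold change -3.26, SE 0.27, edgeR adjusted p 3.56e-06). AT2TE24520 stood at 1.08 and 1.199 CPM in atxr5/6 gcn5, against 4.46 and 4.29 CPM in wild type, and AT4TE09225 at 0.392 and 0.548 CPM, against 2.76 and 2.36 CPM in wild type. These TEs were chosen among called TEs whose libraries do not overlap between the genotypes, so that separation follows from the choice.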

How the data were processed

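The deposited tables hold raw counts of reads over genes and over TEs in 8 RNA-seq libraries. That they are raw follows from the values, which are whole and sum differently by library. Per the submitters' processing notes, which give no role or order, the tools were STAR 2.7.2a, featureCounts 1.6.4, DESeq2 1.26, Bowtie2 and Picard and the builds TAIR10 and dm6. The use of strand and the treatment of multiply mapped reads in counting are not given in the sources used here, so overlapping and antisense genes, gene copies and TE copies are uncertain. The chromatin samples were not analysed here. Names came from a RefSeq gene table for TAIR10.1, which listed 33056 of 33341 gene identifiers (99.1%). Columns of per-sample values left unassigned numbered 0.

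In R 4.3.3, edgeR 4.0.16 (glmQLFit, glmQLFTest) was fitted to all 8 libraries by genotype, leaving 4 residual degrees of freedom. filterByExpr (minimum count 10) kept 19575 of 33341 genes and 1540 of 31189 TEs, while 6636 genes and 18539 TEs were at 0 everywhere. TEs used the effective library sizes from TMM of the gene table. SE is the absolute log2 fold change over the square root of F. Nuclear rDNA is 9 features, the rRNA genes and the miscellaneous RNAs within 5 kb of them.

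The members and the 20 lists (411 genes) and 23 name-matched families were chosen with earlier results of these data known. The text names the targeted genes, up to 4 called members of a list and 2 of a family. It names the 8 higher and 8 lower nuclear protein-coding genes with the smallest p that do not overlap and reach 5 CPM. The 6 TEs in each direction are those with the smallest p among called TEs that do not overlap. Other genes named with their values were picked after these values were seen. Families with under 15 members tested are not described, except the ribosomal proteins of organelles. Alternatives were RLE size factors, library totals, 2 other low-count filters, DESeq2 1.42.0, a fit of only the libraries of this contrast, a replicate block, the rDNA share as covariate, TMM without organelle and rDNA genes, TMM of the TE table and each library left out. The procedure was tested on simulated data with 200 genes changed. The spread between replicates exceeded sampling of reads (chi-square over its degrees of freedom 14.6 to 47.1).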

Additional observations from a re-analysis of the deposited data

Results flagged for a closer look

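Of the 142 genes and 12 TEs named by rule, 16 had an interaction in the edgeR fit at an adjusted p under 0.05. For these the change with the gcn5 label differed between plants with and without the atxr5/6 label. Most were named for a small p against wild type, and the same values enter the interaction. The count is therefore no result about the named set, and the share over all genes is not given. Negative values mean that atxr5/6 gcn5 lay below what the changes in atxr5/6 and in gcn5 add up to on the log2 scale. The interaction was -2.71 for PARP2, -1.86 for XRI1 and -1.52 for TK1A, all higher in atxr5/6 gcn5 than in wild type. It was -2.64 for AT4G22960, -1.34 for AT1G11070 and -2.42 for NAC103, a factor of the unfolded protein response. Among TEs it was -2.09 for AT4TE19655, -2.98 for AT5TE42710 and -3.71 for AT5TE41070, which rest on at most 4 counts per wild-type library. Positive interactions were 3.05 for ST2A, 2.57 for TAT3, 1.48 for WES1, 1.42 for KCS1, 1.23 for WRKY54, 0.90 for RPM1 and 1.15 for LYK4. Of these ST2A, WES1, KCS1, RPM1 and LYK4 were lower than wild type in each mutant genotype by mean CPM. WRKY54 stood at 29.4 and 32.1 CPM in atxr5/6 gcn5, at 2.89 and 3.07 CPM in atxr5/6, at 32.2 and 41.9 CPM in gcn5 and at 8.56 and 8.30 CPM in wild type.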

How the results depend on the processing

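The 7651 gene calls became 7597 with RLE size factors, 7629 with TMM without organelle and rDNA genes, 8026 without the low-count filter, 7126 at a mean of 20 counts and 5350 with DESeq2. They fell to 4887 with library totals, to 4276 with the compared genotypes alone and to 0 with the rDNA share as covariate. Leaving out 1 library gave 5483 to 6403. The 598 TE calls became 302 at a mean of 20 counts, 378 with the compared genotypes alone and 25 with the rDNA covariate, and stayed within 1.5 times under the others, at 527 without the TEs of the runs. Leaving out 1 library gave 388 (without wild-type replicate 1) to 570. The labels do not pair the libraries, and the deviations of same-numbered libraries were correlated at r = -0.17 between atxr5/6 gcn5 and wild type and 0.18 between atxr5/6 gcn5 and gcn5, so the numbers were not taken as pairs. A replicate block gave 7231 gene and 595 TE calls, and with crossed numbers, tried after seeing the data, 7644 and 576. No gene or TE called in both was called in opposite directions by any alternative, and no scaling moved the median of all genes by 0.1. Under the rDNA covariate the log2 fold change turned round for GSTF12 (0.22), CER3 (0.07), HAC1 (-0.10), BHLH38 (-1.01), PHT1-4 (-0.27) and SAG13 (-0.88), and for ATXR6 (-0.48), HAG1 (-0.11), BTS (-0.84) and OPT3 (-0.45), which were not called. Leaving out 1 library, the value ran from -0.28 (without atxr5/6 gcn5 replicate 1) to 0.36 for ATXR6, from -0.001 (without the same library) to 0.37 for HAG1 and from -0.15 (without wild-type replicate 1) to 0.28 for BTS. The causes were not tested. With 2 libraries per genotype and depths of 24860332 to 43969417 gene counts, genes and TEs below the filter could not be compared.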
